A study of Rattus norvegicus with 119 samples.

Results

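The transcripts described are those of enzymes that write or erase acetyl and methyl groups on histones, measured in the hippocampus of young rats that had or had not eaten lead. A probe set was a member when the array's probe annotation gave it exactly 1 gene symbol and that symbol began with Hdac, Sirt, Kdm, Kmt, Kat, Setd or Prmt followed by a digit, or was Ezh1, Ezh2, Ehmt1, Ehmt2, Crebbp or Ep300. The rule used names only and no measured value. It found 60 probe sets of 58 genes among 29214 probe sets, of which 15310 carried 1 symbol each, for 14506 genes. They comprised 8 acetyltransferases, 11 probe sets of 10 zinc-dependent deacetylases, 6 sirtuins, 15 lysine methyltransferases or SET-domain genes, 13 genes of the demethylase families, and 7 probe sets of 6 arginine methyltransferases. Hdac1 and Prmt1 each had a pair of probe sets, which are given apart.

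RNA came from male and female rats of the Fischer, Long Evans and Sprague Dawley strains, with 1 array per animal. In each strain and sex there was 1 group on control food, and 4 groups combined a dose of lead acetate in the food (250 or 750 ppm) with a window of exposure. Perinatal exposure reached the pups through their dams, from 10 days before breeding until weaning. Postnatal exposure ran from birth to postnatal day 45. All hippocampi were collected on postnatal day 55. This gave 30 groups, 29 of 4 animals and 1 of 3, the Sprague Dawley male controls. The labels name no litters, so the p-values measure the spread between these animals, some of which may share a litter, and the animals were treated as independent.

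Histone acetyltransferases neutralise the positive charge of lysines in histone tails and loosen chromatin, and deacetylases reverse this. Methyltransferases and demethylases set marks that are read by other proteins, and whether such a mark goes with active or silent chromatin depends on the residue. In the hippocampus these enzymes are known for their part in memory formation and in the maturation of neurons and glia, and several members act mainly on other proteins: Sirt2 on tubulin, Sirt3, Sirt4 and Sirt5 in mitochondria, Setd3 on actin and Hdac6 in the cytoplasm.

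Promoter sequence was compared first, because the members come from several protein families with no coding sequence common to all of them. RefSeq promoters on build GRCr8 were matched by symbol for 47 of the 58 genes. The 5 shown are those of genes on which the results turn: Kmt5c, Kmt5a and Kdm6b, which were highest in Long Evans rats, Prmt7, which stood apart in Sprague Dawley rats, and Ezh2, which had the smallest p for lead. Each covers the 250 bases before the annotated start, 5′ to 3′ on the gene's strand, and capitals mark the GC box, GGGCGG or its complement CCGCCC, the letters bound by Sp1-type factors.
Kmt5a: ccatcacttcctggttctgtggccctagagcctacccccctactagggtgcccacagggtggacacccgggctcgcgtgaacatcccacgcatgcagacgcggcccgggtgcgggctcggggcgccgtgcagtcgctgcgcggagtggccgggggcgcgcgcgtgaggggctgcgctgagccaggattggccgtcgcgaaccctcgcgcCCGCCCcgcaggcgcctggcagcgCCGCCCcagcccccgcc
Kmt5c: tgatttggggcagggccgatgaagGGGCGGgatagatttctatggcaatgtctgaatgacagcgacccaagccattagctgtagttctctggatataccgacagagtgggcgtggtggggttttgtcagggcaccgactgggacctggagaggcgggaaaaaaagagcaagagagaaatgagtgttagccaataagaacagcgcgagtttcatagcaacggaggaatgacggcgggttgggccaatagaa
Kdm6b: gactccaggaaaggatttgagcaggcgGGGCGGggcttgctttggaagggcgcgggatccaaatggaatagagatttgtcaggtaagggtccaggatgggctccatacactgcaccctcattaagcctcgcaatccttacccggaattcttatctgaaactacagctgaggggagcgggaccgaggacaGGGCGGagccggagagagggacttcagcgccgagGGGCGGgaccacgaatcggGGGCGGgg
Prmt7: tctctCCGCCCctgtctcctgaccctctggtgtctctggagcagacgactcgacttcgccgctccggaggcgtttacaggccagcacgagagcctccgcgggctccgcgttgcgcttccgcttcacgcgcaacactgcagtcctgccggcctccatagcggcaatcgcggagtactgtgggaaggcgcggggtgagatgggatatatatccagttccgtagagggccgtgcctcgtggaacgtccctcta
Ezh2: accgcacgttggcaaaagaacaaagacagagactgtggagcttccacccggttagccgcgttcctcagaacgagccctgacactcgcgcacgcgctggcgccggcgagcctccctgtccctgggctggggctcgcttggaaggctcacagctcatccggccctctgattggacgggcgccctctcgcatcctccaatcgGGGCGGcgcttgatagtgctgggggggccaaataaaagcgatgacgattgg

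The Kmt5a window lies at chr12:37818027-37818276 on the minus strand, that of Kmt5c at chr1:78135932-78136181 on the minus strand, that of Kdm6b at chr10:54641015-54641264 on the minus strand, that of Prmt7 at chr19:51020346-51020595 on the plus strand and that of Ezh2 at chr4:77687184-77687433 on the minus strand. Kdm6b held 4 GC boxes, Kmt5a held 2, and Kmt5c, Prmt7 and Ezh2 held 1 each. Over the same window of 250 bases in every promoter, searched on both strands, 31 of the 47 member promoters held a GC box, or 66.0%, against 32.4% of all 27457 promoters in the table and 47.3% of the 11951 promoters of genes on the array. The CCAAT box, CCAAT, was found in 23 members, or 48.9%, against 34.3% of all promoters and 35.6% of those of genes on the array. The ETS motif CCGGAAG was found in 9, or 19.1%, against 7.74% and 11.2%. Neither TATAAA, found in 13.1% of all promoters and 11.2% of those of genes on the array, nor TGACGTCA, found in 1.70% and 2.28%, was found in a member. The members' median number of CpG dinucleotides was 17 (lowest 2, highest 43), against 12 over the genes on the array and 6 over the table. These matches describe letters in a window. No factor's binding was measured.

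Member levels were log2 intensities with means over all arrays from 7.09 (Setd4) to 11.8 (Sirt2). The least bright member lay at the 44.6th percentile of all probe sets, so a filter on low values removed none of the 60. Array medians lay between 7.36 and 7.57. All 12 probe sets of hippocampal neuron markers lay above the median level of all probe sets, as did 9 of 9 for astrocytes, 11 of 11 for oligodendrocytes and 7 of 9 for neighbouring brain regions. Of the choroid plexus markers 12 of 14 did so. A level above that median does not by itself show that a cell type was present, since probe sets differ in brightness. On 8 arrays, 3 from Long Evans and 5 from Sprague Dawley rats, X-linked genes had levels typical of the opposite sex. Without these 8 arrays, 0 members were called for lead or sex, and 43, 30 and 45 for the strain contrasts given below as 44, 32 and 46. Each label also carries a number whose meaning the labels do not give. Within a group the numbers run in or nearly in sequence, and each group of each strain has a run of its own. Whatever goes with these runs therefore cannot be told apart from lead, sex or strain. Within each group the animals were split into those with the lower and those with the upper numbers, 20 and 20 in Fischer and in Long Evans rats, and 19 and 20 in Sprague Dawley rats. In Fischer rats the sets stood far apart, with 60.9% of all probe sets called different between them. So the strain counts of the 60 members, and most strain differences of the members described, are also given by set. Strain counts by role, marker list and pathway list are over all animals. In such bulk tissue, fewer cells of a type and less RNA per cell cannot be told apart. A probe set is called where limma's moderated test, two-sided, gave an adjusted p under 0.05 after Benjamini-Hochberg adjustment over all 29214 probe sets.

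No member's group means spanned more than 0.69 on the log2 scale, and the same span was not computed over all probe sets. The difference between a member's highest and lowest group mean, over the 30 groups, had a median of 0.30 on the log2 scale. The range was widest for Kmt5c, at 0.69, from 7.72 in Fischer male controls to 8.41 in Long Evans females given 750 ppm after birth. It was 0.63 for the Hdac1 probe set 10929261, 0.50 for Kdm6b, 0.50 for Kdm4d and 0.49 for Sirt3. It was smallest, at 0.14, for Kdm1a (the flavin-dependent demethylase LSD1), Sirt5 and Kat5. The highest group mean lay in a Fischer group for 22 members, in a Long Evans group for 27 and in a Sprague Dawley group for 11. The map of group means shows blocks that follow strain rather than lead.

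**Figure D1:**
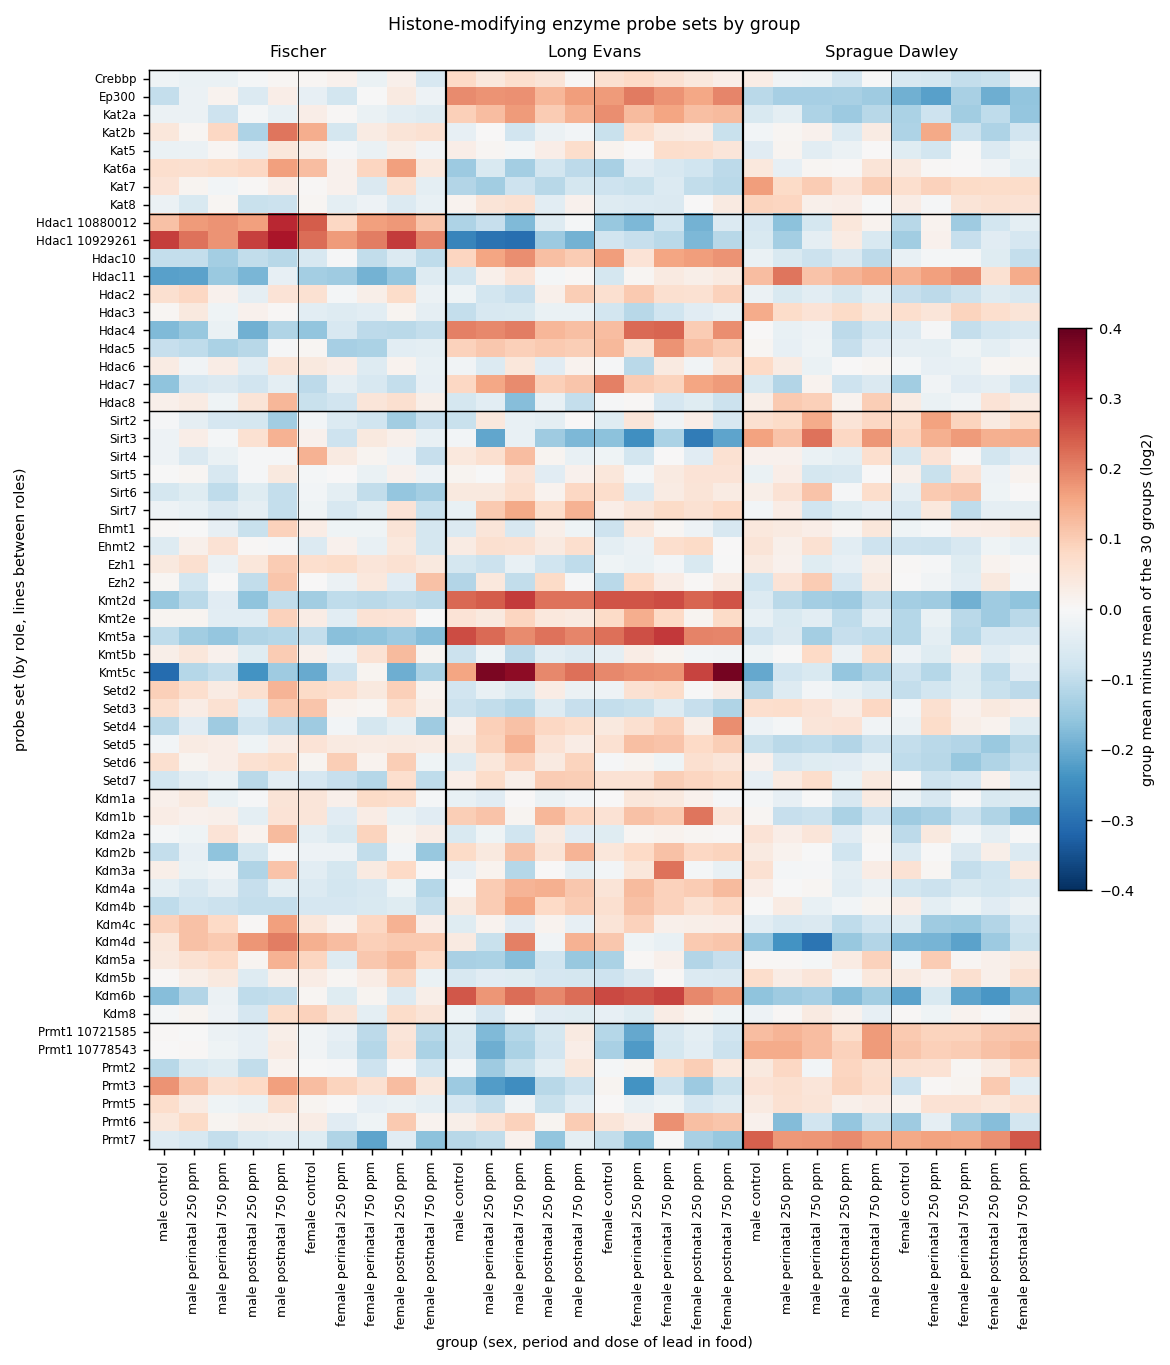
Group means of the 60 probe sets (rows, by role) in the 30 groups (columns, by strain, then sex, then treatment), each minus the mean of the 30 groups on the log2 scale; the colours stop at -0.4 and 0.4. Kmt2d, Kmt5a, Kmt5c and Kdm6b are high throughout the Long Evans block, Hdac1 throughout the Fischer block, and Prmt7 and Hdac11 throughout the Sprague Dawley block.

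Lead left no member called. Each strain's 8 exposed groups were compared with the controls of the same strain and sex, and the mean of the 8 differences is the mean lead effect. The exposed groups of a strain and sex share 1 control group, so counts of groups above their controls are not counts of independent comparisons. None of the 60 was called in Fischer rats, where 0% of all probe sets were called, in Long Evans rats, where 0.212% were, or in Sprague Dawley rats, where 0.0171% were. At an unadjusted p under 0.05 there was 1 member in Fischer, 9 in Long Evans and 0 in Sprague Dawley rats, against 2.50%, 7.45% and 3.64% of all probe sets. The median difference of the members was -0.0084 in Fischer, 0.014 in Long Evans and -0.0064 in Sprague Dawley rats, beside -0.0043, 0.0010 and -0.0037 over all probe sets. In Long Evans rats 40 of the 60 differences were above 0, against 23 in Fischer and 28 in Sprague Dawley rats. Over all probe sets 50.9%, 46.3% and 46.8% were above 0, in that order.

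Ezh2, the catalytic subunit of the polycomb complex that methylates histone H3 at silent genes, had the smallest p, in Long Evans rats. Its level in the male controls was 7.65, 7.71, 7.70 and 7.70, and in the female controls 7.67, 7.79, 7.76 and 7.58. In the 32 exposed animals the lowest was 7.47, the median 7.84 and the highest 8.02. The control median of 7.70 lay below that of the exposed animals, yet the ranges overlapped, and the lowest value of all was that of an exposed male (perinatal, 750 ppm). All 8 exposed groups had a mean above that of their controls, by 0.02 to 0.19. The mean effect was 0.13 ± 0.04 (SE), a 1.10-fold difference, with a 95% interval from 0.058 to 0.21 and an adjusted p of 0.156. Without that male the effect was 0.14 and passed, with an adjusted p of 0.048, and over all alternatives the adjusted p ran from 0.045 to 0.743. In Fischer rats the control median was 7.77 and the exposed median 7.81, with 3 of 8 groups above their controls, and in Sprague Dawley rats the medians were 7.76 and 7.82, with 5 of 8 above.

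Kdm4a, a demethylase of histone H3, followed. In Long Evans rats its 8 controls had a lowest level of 9.47, a median of 9.60 and a highest of 9.67. The 32 exposed animals had a lowest of 9.60, a median of 9.70 and a highest of 9.83. Most exposed animals were above the control median, but the ranges overlapped. The effect was 0.09 ± 0.03 (SE), with an interval from 0.039 to 0.15, an adjusted p of 0.166 and 8 of 8 groups above their controls. In the other strains 3 of 8 groups were above.

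**Figure D2:**
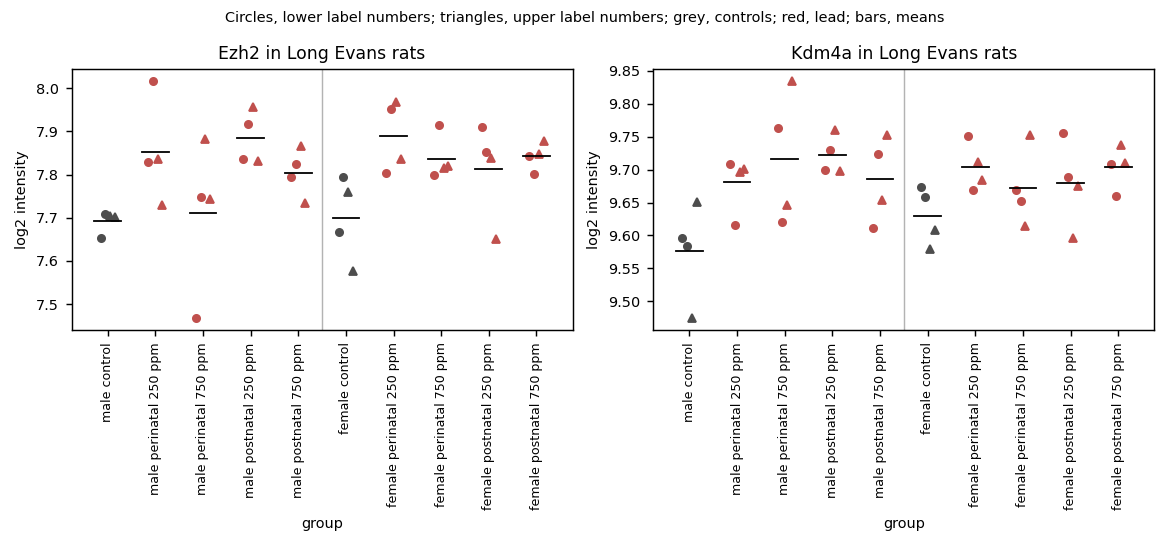
Log2 intensity of Ezh2 (left) and Kdm4a (right) in each Long Evans rat by group; grey, controls; red, lead; circles, lower and triangles, upper label numbers; bars, group means. All 8 exposed group means lie above the control mean of their sex for both genes, and single animals overlap.

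None of the other members at an unadjusted p under 0.05 in Long Evans rats had as large a difference as Ezh2. Hdac11, the only class IV deacetylase, had a control range of 9.96 to 10.2 and an exposed range of 10.0 to 10.3, with an effect of 0.09 and an adjusted p of 0.44. Sirt2 had an effect of 0.07 (adjusted p = 0.584), the nucleolar sirtuin Sirt7 of 0.09 (adjusted p = 0.589) and Setd6 of 0.07 (adjusted p = 0.627). Beside these, 5 of 11 oligodendrocyte probe sets were called higher in the exposed Long Evans rats, where 0.212% of all probe sets were called in either direction. The mean of that list was 11.1 (lowest 11.0, highest 11.2) in controls and 11.3 (lowest 11.0, highest 11.5) in exposed rats. The choroid plexus list had a mean of 8.95 in Long Evans controls and 8.62 in exposed rats, with 0 of 14 probe sets called. The part of these cells in the enzyme values was not tested.

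The Fischer rats differed in sign for Sirt2. Its level in the 8 Fischer controls had a lowest of 11.7, a median of 11.8 and a highest of 11.9, and in the exposed rats a lowest of 11.6, a median of 11.7 and a highest of 11.9. The ranges overlapped, the mean effect was -0.08 and 0 of 8 groups were above their controls, against 7 of 8 in Long Evans and 5 of 8 in Sprague Dawley rats. The difference between Long Evans and Fischer rats in the effect on Sirt2 was 0.14 ± 0.05 (SE) and was not called (adjusted p = 0.489). The oligodendrocyte list had a mean of 11.2 in Fischer controls and 11.1 in exposed Fischer rats. The other Fischer members of smallest p were Ehmt2, which methylates histone H3 in euchromatin, at 0.06, and Kmt5c, which adds methyl groups to histone H4, at 0.13 ± 0.08 (SE). Kmt5c lay above its controls in 8 of 8 Fischer groups, 6 of 8 Long Evans groups and 6 of 8 Sprague Dawley groups. In Sprague Dawley rats the smallest p-values belonged to Kdm3a at -0.08, Kdm4c at -0.05 and Sirt6 at 0.06, with an adjusted p of 0.999 for each.

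The 95% intervals bound what was missed. Over the 60 members they ran from -0.29 to 0.28 in Fischer, from -0.19 to 0.21 in Long Evans and from -0.17 to 0.22 in Sprague Dawley rats. The interval lay within 0.25 of 0 for 57 members in Fischer rats and for 60 in each of the other strains. So a mean effect beyond 0.25 on the log2 scale was outside the interval of most members. Smaller effects were bounded only by each member's own interval. The median half-width was 0.098 in Fischer, 0.066 in Long Evans and 0.073 in Sprague Dawley rats. The fit held no term for the label number sets, between which 60.9% of all probe sets were called in Fischer rats. That difference is therefore part of the spread behind the Fischer intervals.

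**Figure D3:**
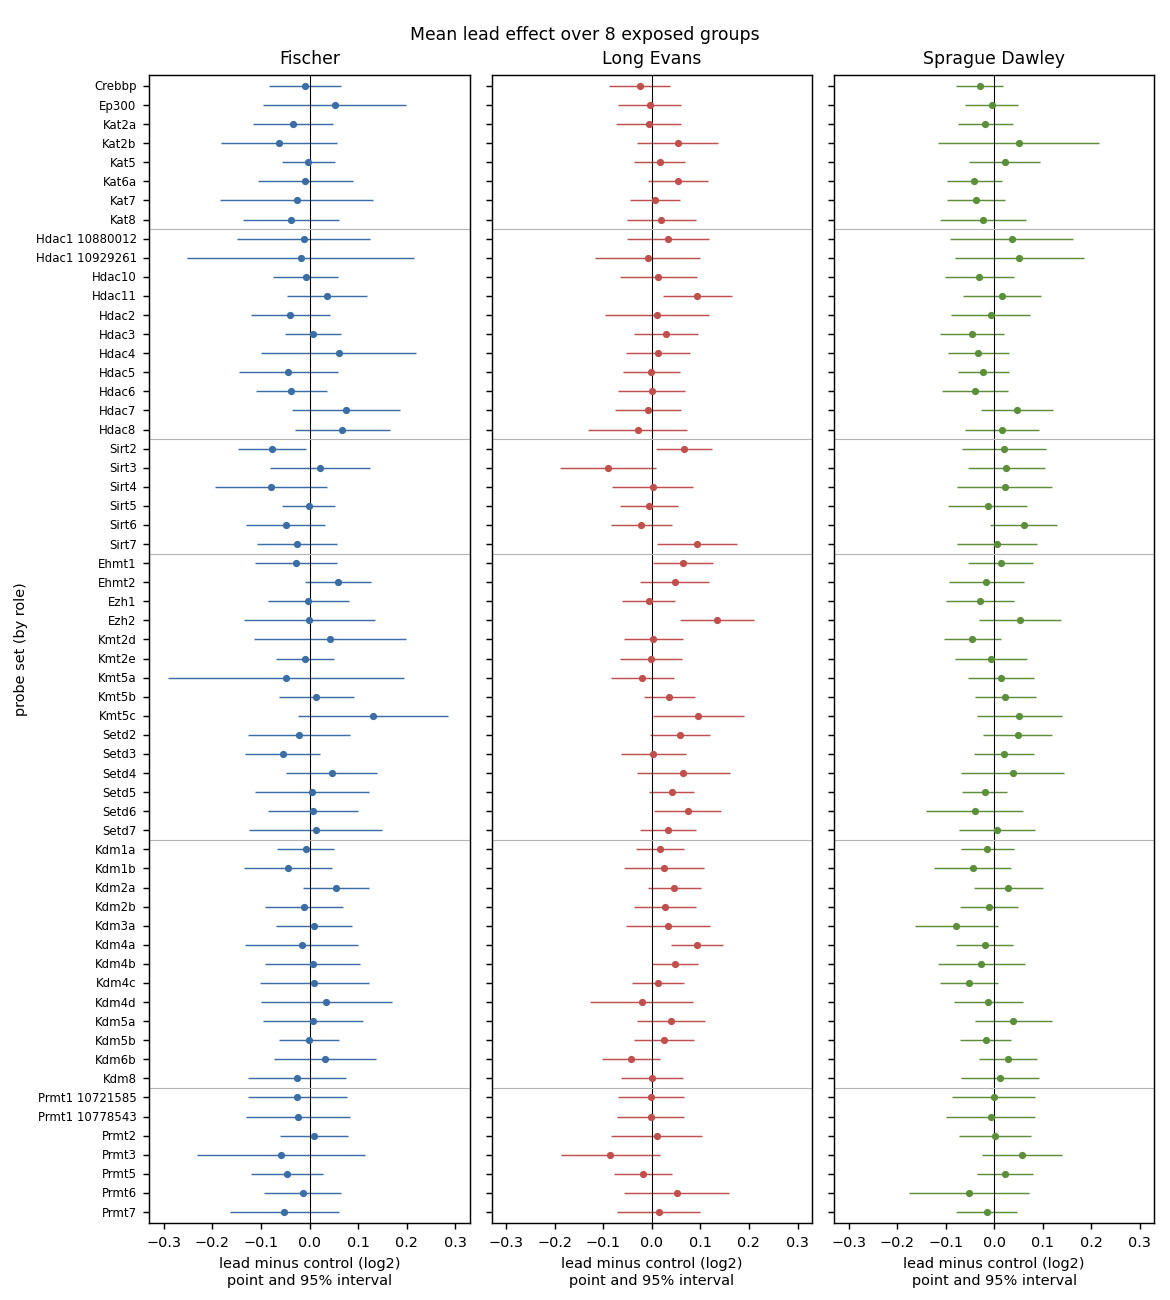
Mean lead effect (log2, lead minus control over 8 exposed groups) of the 60 probe sets by role in each strain, as points with 95% intervals; a difference of 0 is marked by a vertical line. In Long Evans rats the intervals of 9 members lie apart from 0, the Ezh2 interval farthest at 0.058 to 0.21, and in Sprague Dawley rats 0 do.

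Taken group by group, 24 contrasts of 1 exposed group with its controls gave 0 called members. Over all probe sets these contrasts called 0% to 0.0137% in Fischer rats (0.00342% in 1 of them), 0.0103% to 0.133% in Long Evans rats and 0% to 0.0274% in Sprague Dawley rats. Of the Long Evans contrasts, the perinatal males called 0.0411% at 250 ppm and 0.0548% at 750 ppm, the postnatal males 0.024% and 0.0479%, the perinatal females 0.0103% and 0.133%, and the postnatal females 0.0171% and 0.0103%. Member differences ran from -0.23 to 0.21 in Fischer, from -0.25 to 0.23 in Long Evans and from -0.19 to 0.27 in Sprague Dawley rats. At an unadjusted p under 0.05 there were 8, 30 and 13 of 480 tests. Of all probe sets, single contrasts held 1.12% to 4.26% there in Fischer, 3.53% to 9.34% in Long Evans and 2.28% to 4.61% in Sprague Dawley rats. The smallest p of a strain belonged to Hdac11 in Fischer males given 750 ppm after birth (0.19 ± 0.07 SE), to Kdm4a in Long Evans males given 250 ppm after birth (0.15 ± 0.05 SE, adjusted p = 0.568), and to Kdm6b in Sprague Dawley females exposed perinatally at 250 ppm (0.15 ± 0.05 SE, adjusted p = 0.989).

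Dose called no member either. Over all probe sets 0.0719% were called between 750 and 250 ppm in Fischer, 0.0548% in Long Evans and 0.00342% in Sprague Dawley rats. An unadjusted p under 0.05 was reached by 3, 7 and 2 members, beside 5.51%, 6.94% and 3.30% of all probe sets. In Fischer rats the smallest p-values were those of Kdm2a at 0.09 (adjusted p = 0.658), the acetyltransferase Kat2b at 0.13 (adjusted p = 0.799) and Ezh2 at 0.13 (adjusted p = 0.875). In Long Evans rats they were those of Hdac6 at 0.09 (adjusted p = 0.398), Prmt7 at 0.09 (adjusted p = 0.58) and Kdm4d at 0.11 (adjusted p = 0.602). In Sprague Dawley rats they were those of Kmt5b at 0.07, Kdm1a at 0.05 and Sirt7 at -0.06. All 7 arginine methyltransferase probe sets had higher means at 750 than at 250 ppm in Long Evans rats, 0 of 7 in Fischer rats and 5 of 7 in Sprague Dawley rats, and none was called. Over all probe sets 48.6%, 46.5% and 48.4% had higher means, in that order. The 7 include the pair of probe sets of Prmt1.

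Between perinatal and postnatal exposure 0.00342% of all probe sets were called in Fischer, 0.065% in Long Evans and 0.0411% in Sprague Dawley rats, and again 0 members. Members at an unadjusted p under 0.05 numbered 0, 5 and 2, beside 4.29%, 12.1% and 4.21% of all probe sets. The nearest were the Prmt1 probe sets in Long Evans rats. Prmt1 carries out most asymmetric arginine methylation in the cell. Perinatal minus postnatal, its level differed by -0.11 in probe set 10778543 (adjusted p = 0.182) and by -0.10 in probe set 10721585 (adjusted p = 0.197). Over the 4 exposed groups of each sex, the latter had means of 9.16 and 9.22 in perinatal males at 250 and 750 ppm and of 9.26 and 9.37 in postnatal males. In females the means were 9.13 and 9.27 perinatally and 9.29 and 9.26 postnatally, so the lower values lay in the males and in the females at 250 ppm. Hdac4, a class IIa deacetylase that shuttles between cytoplasm and nucleus in neurons, was next at 0.08 (adjusted p = 0.29). In Fischer rats the smallest p-values were those of Hdac11, Hdac8 and Hdac5, each at -0.07. In Sprague Dawley rats they were those of Kdm4d at -0.11 (adjusted p = 0.509), Sirt6 at 0.08 (adjusted p = 0.904) and Kdm6b at 0.04. In the same Long Evans contrast the choroid plexus list had a median difference of -1.14, and its part in the Prmt1 values was not tested.

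The lead effect was compared between sexes and strains with 0 members called. Between females and males 0% of all probe sets were called in Fischer and in Long Evans rats and 0.00342% in Sprague Dawley rats. There 0, 0 and 1 members reached an unadjusted p under 0.05, beside 2.51%, 2.88% and 2.60% of all probe sets. The smallest p-values in Fischer rats were those of Prmt2 (-0.10), the Hdac1 probe set 10880012 (-0.20) and Sirt4 (-0.15). In Long Evans rats they were those of Hdac7 (-0.13), Hdac4 (0.10) and Kat2a (-0.09). In Sprague Dawley rats they were those of Kdm2a (0.15), Kat7 (0.10) and Prmt7 (0.10). Between strains 0.13% of all probe sets were called for Long Evans against Fischer and 0.0103% for Sprague Dawley against Fischer. For Sprague Dawley against Long Evans the share was 0.0787%. Members at an unadjusted p under 0.05 numbered 2, 2 and 0, beside 4.61%, 3.54% and 3.46% of all probe sets. After Sirt2, the members of smallest p were Sirt7 at 0.12 and Kdm4a at 0.11 in the first of these contrasts. In the second they were Sirt6 at 0.11, Sirt2 at 0.10 and Prmt5 at 0.07, and in the third Kdm4a, Kdm3a and Setd6, each at -0.11.

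Male and female rats were compared over all treatments. Female minus male, 0 members were called in any strain, against 0.0822% of all probe sets in Fischer, 0.0856% in Long Evans and 0.0171% in Sprague Dawley rats, and 0.154% over the mean of the strains. At an unadjusted p under 0.05 there were 1, 11 and 6 members, and 3 over the mean. Beside them stood 6.59%, 16.5% and 9.29% of all probe sets, and 5.46% over the mean. Differences ran from -0.053 to 0.088 in Fischer, from -0.090 to 0.13 in Long Evans and from -0.081 to 0.045 in Sprague Dawley rats. The smallest adjusted p-values were those of Kdm4c in Long Evans rats (0.06, adjusted p = 0.156) and the Hdac1 probe set 10929261 in the same strain (0.13, adjusted p = 0.163). Over the mean of the strains the intervals of the members lay between -0.092 and 0.10.

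Many members differed between the strains, as did many other probe sets. The strains also have separate runs of label numbers, so strain cannot be told apart from whatever goes with those runs. All probe sets include 13581 without a symbol and many dimmer than any member, so the shares below compare unlike sets. Between Long Evans and Fischer rats 44 of 60 were called, or 73.3%, against 61.2% of all probe sets. Of these 24 were higher in Long Evans rats, where 27.8% of all probe sets were, and 20 lower, where 33.4% were. Between Sprague Dawley and Fischer rats 32 were called, or 53.3% against 40.7%, with 15 higher (19.8% of all) and 17 lower (20.8%). Between Sprague Dawley and Long Evans rats 46 were called, or 76.7% against 62.2%, with 18 higher (34.4%) and 28 lower (27.8%). The median member difference was 0.012, -0.0013 and -0.024 in that order, beside -0.014, 0.0050 and 0.019 over all probe sets.

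The label numbers limit these counts. In the animals with lower numbers alone 32, 37 and 44 members were called in the 3 strain contrasts, against 46.9%, 46.2% and 51.7% of all probe sets, and in those with upper numbers alone 49, 42 and 39, against 60.3%, 55.4% and 53.2%. Called in the same direction in both sets were 21 members for Long Evans against Fischer (26.8% of all probe sets), 12 for Sprague Dawley against Fischer (12.1%) and 33 for Sprague Dawley against Long Evans (36.3%). Called in opposite directions in the sets were 6 (5.22%), 13 (16.8%) and 0 (0.743%). Those 13 included Hdac4, Hdac5, Hdac7, Kmt2d, Kmt5a, Kmt5c and Ezh2, so no direction is given for them between Sprague Dawley and Fischer rats. In control animals alone 17, 6 and 20 members were called, beside 21.8%, 8.51% and 20.9% of all probe sets called there in either direction. The same 17, 6 and 20 members were called in the direction found over all animals. In both number sets and in controls 14, 3 and 19 were called alike (16.6%, 5.87% and 18.5% of all probe sets). The contrast of Sprague Dawley with Long Evans rats was the one least moved by the numbers.

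**Figure D4:**
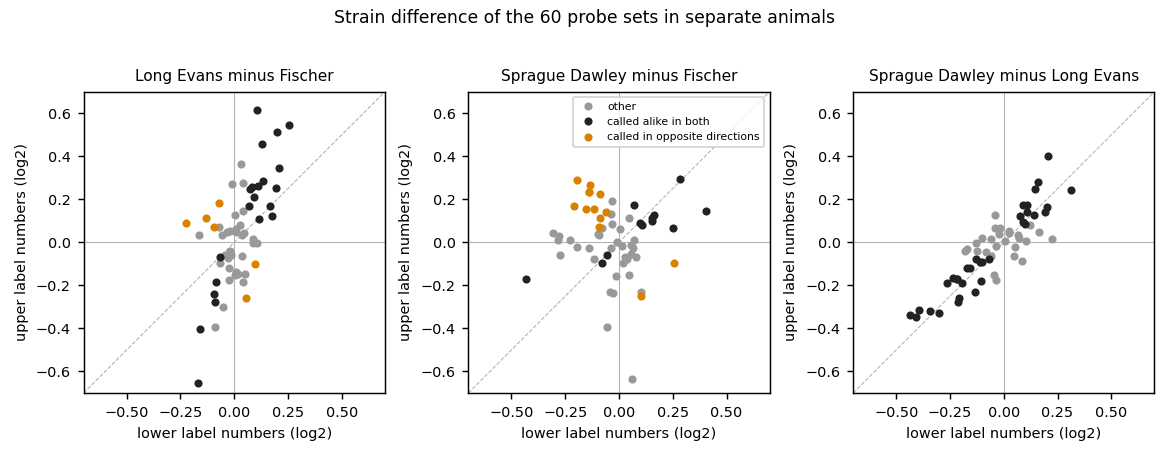
Strain difference (log2) of the 60 probe sets in animals with lower label numbers (horizontal) and upper label numbers (vertical), for the 3 strain contrasts; black, called alike in both sets (21, 12 and 33); orange, called in opposite directions (6, 13 and 0); dashed, equal values. The points of Sprague Dawley minus Long Evans lie along the diagonal, and those of the contrasts with Fischer rats are spread about it.

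Among the acetyltransferases, Ep300 and Kat2a were lower in Sprague Dawley than in Long Evans rats. Ep300, a coactivator that acetylates histones at enhancers, had a lowest level of 10.44, a median of 10.58 and a highest of 10.71 in Long Evans rats, and of 10.11, 10.26 and 10.34 in Sprague Dawley rats. The strains did not overlap. The difference was -0.33 (adjusted p = 6.8e-19), with -0.34 and -0.32 in the number sets. Against Fischer rats Ep300 was 0.20 higher in Long Evans rats, with 0.03 in the lower numbers and 0.36 in the upper. Kat2a, a subunit of the SAGA coactivator, differed by -0.24 between Sprague Dawley and Long Evans rats (adjusted p = 6.7e-21) and by 0.16 between Long Evans and Fischer rats, both called in each number set (-0.21 and -0.28, then 0.07 and 0.25) and in controls. Crebbp, the paralogue of Ep300, differed less, by 0.06 for Long Evans against Fischer (0.0016 in the lower numbers, adjusted p = 0.955, and 0.13 in the upper) and by -0.09 for Sprague Dawley against Long Evans, the latter in both sets. Kat7 was 0.18 higher in Sprague Dawley than in Long Evans rats (0.20 and 0.17 in the sets). Kat6a differed by -0.18 between Long Evans and Fischer rats (-0.09 and -0.28). Kat5 differed by -0.06 between Sprague Dawley and Long Evans rats, with -0.13 in the lower and -0.0015 in the upper numbers (adjusted p = 0.952). Kat2b was called in no strain contrast. In all, 4 of 8 acetyltransferases were higher and 2 lower for Long Evans against Fischer, beside 27.8% and 33.4% of all probe sets. For Sprague Dawley against Fischer 2 were higher and 3 lower, beside 19.8% and 20.8%. For Sprague Dawley against Long Evans 2 were higher and 4 lower, beside 34.4% and 27.8%.

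Of the 11 zinc-dependent deacetylase probe sets, 5 were higher and 4 lower for Long Evans against Fischer, beside 27.8% and 33.4% of all probe sets. For Sprague Dawley against Long Evans 4 were higher and 5 lower, beside 34.4% and 27.8%. The class IIa genes Hdac4, Hdac5 and Hdac7, whose proteins have little catalytic activity of their own and act largely by recruiting other repressors, were each higher in Long Evans rats. Against Fischer rats the differences were 0.29, 0.19 and 0.21, called in both number sets and in controls, with 0.13, 0.11 and 0.13 in the lower numbers and 0.46, 0.26 and 0.28 in the upper. Against Sprague Dawley rats the differences (Sprague Dawley minus Long Evans) were -0.22, -0.14 and -0.20, with -0.26, -0.17 and -0.22 in the lower numbers and -0.19, -0.12 and -0.17 in the upper. In controls alone the last comparison missed the threshold for Hdac4 (-0.19, adjusted p = 0.0679) and for Hdac5 (-0.13, adjusted p = 0.0597). Hdac10, a polyamine deacetylase, differed in the same directions, by 0.22 and -0.19, in both sets and in controls.

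Hdac11 was lowest in Fischer and highest in Sprague Dawley rats. Its lowest, median and highest levels were 9.81, 10.01 and 10.26 in Fischer rats, 9.96, 10.14 and 10.32 in Long Evans rats and 9.93, 10.31 and 10.44 in Sprague Dawley rats. The ranges overlapped, and the lowest Sprague Dawley value was that of 1 animal. The differences were 0.15 for Long Evans against Fischer, 0.29 for Sprague Dawley against Fischer (adjusted p = 4e-22) and 0.14 for Sprague Dawley against Long Evans (adjusted p = 1.1e-08), each called in both number sets. In controls alone the first was 0.10 (adjusted p = 0.108).

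The class I deacetylase Hdac1, a catalytic subunit of several repressor complexes, was highest in Fischer rats. Probe set 10929261 had a mean of 8.86 ± 0.27 (SD, n = 40) in Fischer, 8.45 ± 0.15 (n = 40) in Long Evans and 8.56 ± 0.15 (n = 39) in Sprague Dawley rats, and probe set 10880012 of 9.49 ± 0.16, 9.21 ± 0.11 and 9.27 ± 0.15. Between Long Evans and Fischer rats the differences were -0.41 (adjusted p = 1.4e-12) and -0.28, called in both number sets, at -0.17 and -0.16 in the lower numbers and -0.65 and -0.40 in the upper. Between Sprague Dawley and Fischer rats they were -0.29 and -0.23 over all animals, yet 0.06 (adjusted p = 0.246) and -0.06 (adjusted p = 0.242) in the lower numbers, so that contrast rested on the upper ones. Hdac2, the close relative of Hdac1 in the same complexes, differed by 0.10 or less in each contrast and was lower in Sprague Dawley rats than in the other strains (-0.09 against Fischer, -0.10 against Long Evans), though each was called in only 1 of the number sets. Hdac3, the catalytic subunit of the nuclear receptor corepressor complexes, was 0.13 higher in Sprague Dawley than in Long Evans rats, in both number sets (0.09 and 0.17) and in controls (0.19). Hdac6 was called in no strain contrast.

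**Figure D5:**
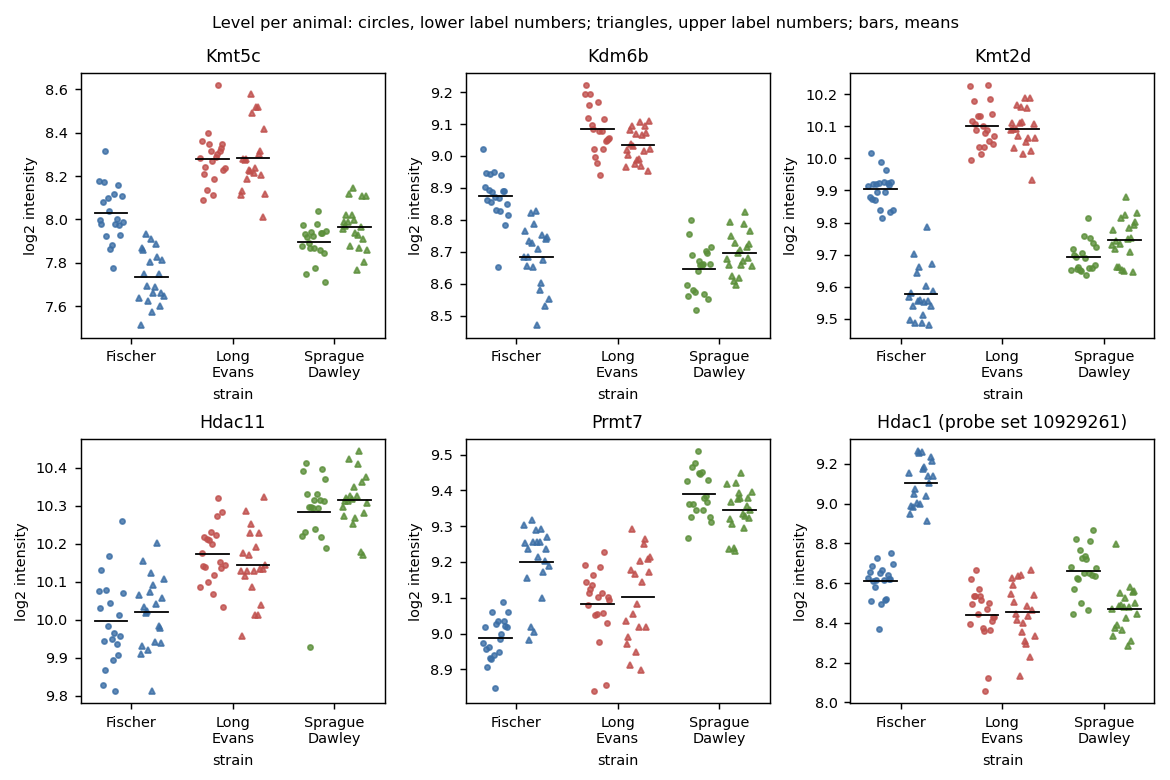
Log2 intensity per animal of Kmt5c, Kdm6b, Kmt2d, Hdac11, Prmt7 and the Hdac1 probe set 10929261 by strain; circles, lower and triangles, upper label numbers; bars, means of each set. The Fischer sets stand apart for Hdac1 (8.37 to 8.75 against 8.91 to 9.26) and Kmt2d, while the Long Evans sets overlap in every panel.

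Of the sirtuins, Sirt3, the main mitochondrial deacetylase, showed the widest difference. Its lowest, median and highest levels were 8.13, 8.42 and 8.69 in Fischer rats, 7.85, 8.25 and 8.51 in Long Evans rats and 8.29, 8.53 and 8.73 in Sprague Dawley rats. It was 0.30 higher in Sprague Dawley than in Long Evans rats (adjusted p = 2.1e-18), with 0.21 and 0.40 in the number sets, although the ranges overlapped. Sirt2 was 0.16 higher in Sprague Dawley than in Fischer rats (adjusted p = 4e-11), with 0.25 in the lower and 0.07 in the upper numbers, and in controls alone it was 0.08 and not called (adjusted p = 0.328). Against Long Evans rats it was 0.10 higher, with 0.16 in the lower and 0.05 in the upper numbers (adjusted p = 0.0504). Beside it, oligodendrocyte markers were called higher in 4 of 11 probe sets and lower in 0 for Sprague Dawley against Fischer. The shares of all probe sets there were 19.8% and 20.8%. These markers were higher in 2 and lower in 5 for Sprague Dawley against Long Evans, beside 34.4% and 27.8%. Their part in the Sirt2 values was not tested. Sirt6 was higher than in Fischer rats by 0.12 in both other strains. The set values were 0.07 and 0.17 for Long Evans and 0.07 and 0.18 for Sprague Dawley rats, and in controls alone neither was called (0.10, adjusted p = 0.137, and 0.04, adjusted p = 0.714). Sirt4 and Sirt5 were called in no strain contrast.

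Among the lysine methyltransferases, Kmt5c, Kmt2d and Kmt5a had the widest strain differences and were highest in Long Evans rats. Kmt5c had a lowest level of 7.51, a median of 7.89 and a highest of 8.32 in Fischer rats, of 8.01, 8.28 and 8.62 in Long Evans rats and of 7.71, 7.94 and 8.14 in Sprague Dawley rats. It was 0.40 ± 0.03 (SE) higher in Long Evans than in Fischer rats, a 1.32-fold difference (adjusted p = 8.3e-20), and Sprague Dawley rats were 0.35 below Long Evans rats (adjusted p = 8.5e-17). Kmt2d, which methylates histone H3 at enhancers, ran from 9.93 to 10.23 in Long Evans rats and from 9.64 to 9.88 in Sprague Dawley rats, which did not overlap. Its differences were 0.36 against Fischer rats (adjusted p = 6.6e-20) and -0.38 for Sprague Dawley against Long Evans (adjusted p = 6.3e-21). Kmt5a, which places the first methyl group on the histone H4 lysine that Kmt5b and Kmt5c extend, ran from 11.18 to 11.48 in Long Evans rats and from 10.83 to 11.15 in Sprague Dawley rats, again without overlap. Its differences were 0.36 (adjusted p = 5.1e-12) and -0.31 (adjusted p = 1.2e-09). For all 3 genes these contrasts were called in the same direction in both number sets and in controls. Against Fischer rats the sizes moved with the sets, from 0.25 in the lower to 0.55 in the upper numbers for Kmt5c and from 0.20 to 0.51 for Kmt2d. In Fischer rats the number sets of Kmt5a lay at 11.09 to 11.38 and 10.58 to 10.79, so the size of its contrast with Long Evans rats was 0.10 in the lower and 0.62 in the upper numbers. For Sprague Dawley against Long Evans the set values were -0.39 and -0.32 for Kmt5c, -0.41 and -0.35 for Kmt2d and -0.30 and -0.33 for Kmt5a.

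The third member of that H4 group, Kmt5b, differed from Fischer to Long Evans rats by -0.07 over all animals, opposite in sign to Kmt5a and Kmt5c. Its values by number set are not given here. Setd3 was 0.13 lower in Long Evans than in each of the other strains, in both number sets and in controls. Setd5 was 0.19 lower and Kmt2e 0.14 lower in Sprague Dawley than in Long Evans rats, in both sets. Ezh1, the paralogue of Ezh2, differed by -0.10 between Long Evans and Fischer rats, with -0.03 in the lower numbers (adjusted p = 0.366) and -0.17 in the upper. For Ezh2 the strains had nearly equal means, 7.81, 7.80 and 7.81, while its difference between Long Evans and Fischer rats was -0.13 in the lower and 0.11 in the upper numbers. Ehmt2 differed by -0.06 between Sprague Dawley and Long Evans rats, with -0.06 in each set (adjusted p = 0.054 in the lower numbers). Its partner Ehmt1 was called in no strain contrast. In total 7 of the 15 were higher and 4 lower for Long Evans against Fischer, beside 27.8% and 33.4% of all probe sets. For Sprague Dawley against Fischer 1 was higher and 5 lower over all animals, beside 19.8% and 20.8%. In that contrast Kmt2d, Kmt5a, Kmt5c and Ezh2 were called in opposite directions in the number sets, so its counts set no direction. For Sprague Dawley against Long Evans 2 were higher and 10 lower, beside 34.4% and 27.8%.

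Of the demethylase families, Kdm6b, which removes the polycomb methyl mark from histone H3, had the smallest adjusted p of all members. It had a lowest level of 8.47, a median of 8.80 and a highest of 9.02 in Fischer rats, of 8.94, 9.06 and 9.22 in Long Evans rats and of 8.52, 8.67 and 8.82 in Sprague Dawley rats. The last pair did not overlap and differed by -0.39 (adjusted p = 3.3e-30), with -0.44 and -0.34 in the number sets and -0.44 in controls. Against Fischer rats Long Evans rats were 0.28 higher (adjusted p = 1.7e-21), with 0.21 and 0.35 in the sets. Sprague Dawley rats were 0.11 below Fischer rats (adjusted p = 1.3e-05), a difference of -0.23 in the lower and 0.01 in the upper numbers. Kdm4d had means of 7.49, 7.42 and 7.19 in Fischer, Long Evans and Sprague Dawley rats, and was lower in Sprague Dawley rats by 0.30 against Fischer (adjusted p = 1.1e-14) and by 0.23 against Long Evans, both called in each number set (-0.43 and -0.17, then -0.21 and -0.26) and in controls. Its relatives Kdm4a and Kdm4b were higher in Long Evans than in Fischer rats by 0.16 and 0.17. Kdm4a was at 0.04 in the lower numbers (adjusted p = 0.106) and 0.28 in the upper, and Kdm4b at 0.08 and 0.26. In controls alone neither was called (0.07, adjusted p = 0.335, and 0.14, adjusted p = 0.0748). Kdm1b differed by -0.20 between Sprague Dawley and Long Evans rats (-0.24 and -0.17 in the sets, -0.15 in controls, adjusted p = 0.0622). Over all animals Kdm1a differed by 0.06 or less in each contrast. Kdm5a differed by -0.16 between Long Evans and Fischer rats (-0.09 and -0.24). In all, 5 of 13 demethylase genes were higher and 5 lower for Long Evans against Fischer, beside 27.8% and 33.4% of all probe sets. For Sprague Dawley against Long Evans 2 were higher and 7 lower, beside 34.4% and 27.8%.

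Of the 7 arginine methyltransferase probe sets, 6 were higher and 1, Prmt6, lower for Sprague Dawley against Long Evans, beside 34.4% and 27.8% of all probe sets, and 0 were higher and 4 lower for Long Evans against Fischer, beside 27.8% and 33.4%. In Fischer rats 6 of the 7 were also called higher in the upper than in the lower label numbers, beside 18.6% of all probe sets. Prmt7, which places single methyl groups on arginine, had a lowest level of 8.85, a median of 9.05 and a highest of 9.32 in Fischer rats, of 8.84, 9.10 and 9.29 in Long Evans rats and of 9.23, 9.37 and 9.51 in Sprague Dawley rats. Every Sprague Dawley rat was above the median of each other strain, though the ranges overlapped. The differences were 0.28 against Fischer (adjusted p = 6.6e-17) and 0.28 against Long Evans (adjusted p = 2e-17), called in both number sets and in controls, with 0.41 and 0.14 against Fischer rats and 0.31 and 0.24 against Long Evans rats in the lower and upper numbers. The Prmt1 probe sets were higher in Sprague Dawley than in Long Evans rats by 0.20 and 0.22, and than in Fischer rats by 0.14 and 0.15, each in both number sets. In controls alone the latter were 0.12 (adjusted p = 0.189) and 0.14 (adjusted p = 0.134). Prmt5, the main symmetric arginine methyltransferase, was 0.09 higher in Sprague Dawley than in Long Evans rats, in both sets, and 0.06 in controls (adjusted p = 0.402). Prmt3 was 0.24 lower in Long Evans than in Fischer rats, with -0.09 in the lower numbers (adjusted p = 0.0535) and -0.39 in the upper.

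Cell type markers also differed between the strains, in counts over all animals. For Long Evans against Fischer, 7 of 11 oligodendrocyte probe sets were called higher and 0 lower. Of 9 astrocyte probe sets 1 was higher and 6 lower. In that contrast 27.8% of all probe sets were called higher and 33.4% lower. The mean of the astrocyte list was 11.38 in Fischer and 11.36 in Long Evans rats in the lower label numbers. In the upper numbers it was 11.57 and 11.39. For Sprague Dawley against Long Evans, 7 astrocyte probe sets were higher and 0 lower, beside 34.4% and 27.8% of all probe sets. Of 12 hippocampal neuron probe sets, 4 were higher and 4 lower in Long Evans than in Fischer rats. For Sprague Dawley against Long Evans 1 was higher and 6 lower. The shares of all probe sets are those just given for each contrast. The part of these lists in the enzyme values was not tested. With all animals counted, 4 members had ranges that did not overlap between Long Evans and Sprague Dawley rats, Ep300, Kdm6b, Kmt2d and Kmt5a, each lower in the latter, against 1.59% of all probe sets. There were 0 such members for Long Evans against Fischer (0.411% of all) and for Sprague Dawley against Fischer (0.305%).

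The label number was also compared within each strain. In Fischer rats 46 of 60 members were called between upper and lower numbers, 21 higher and 25 lower in the upper, beside 60.9% of all probe sets, 18.6% higher and 42.3% lower. In Sprague Dawley rats 20 were called, 14 higher and 6 lower, beside 18.9%, with 10.2% higher and 8.71% lower. That count fell to 2 without replicate 1 of every group and to 11 without replicate 4. In Long Evans rats 0 were called, beside 0.0993% of all probe sets, with 0.0171% higher and 0.0822% lower. There 7 members reached an unadjusted p under 0.05, beside 9.56% of all probe sets, and 2 were called without replicate 3. In Fischer rats Kmt5a was 0.53 lower (adjusted p = 3.4e-17) and the Hdac1 probe set 10929261 was 0.50 higher in the upper numbers. Prmt3 (0.34) and Kat7 (0.33) were also higher, and Kmt2d (-0.33), Hdac4 (-0.33), Ep300 (-0.31) and Kmt5c (-0.29) lower. Ranges of the sets did not overlap for 9 members, against 4.95% of all probe sets. The Hdac1 probe set 10929261, Kat7 and Prmt3 were higher and Ep300, Hdac4, Kdm4a, Kmt2d, Kmt5a and Setd5 lower. In Long Evans and in Sprague Dawley rats there were 0 such members (0% of all in each). By role, 6 of 7 arginine methyltransferase probe sets were higher and 0 lower in the upper Fischer numbers, and 3 of 15 lysine methyltransferases were higher and 9 lower. In Sprague Dawley rats the widest differences were those of the Hdac1 probe set 10929261 (-0.20), Kat2b (-0.19), Setd6 (0.15), Prmt1 (0.14 and 0.12) and Kdm4b (0.13). In the Fischer contrast 8 of 9 astrocyte probe sets were called higher and 10 of 11 meningeal ones lower. What the numbers stand for cannot be told from the labels.

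Genes of the wider pathway were taken from 5 lists: other histone methyltransferases and demethylases, partners of the acetyltransferases, subunits of the deacetylase complexes, subunits of the polycomb and COMPASS methyltransferase complexes, and proteins that read the marks. They held 127 probe sets of 120 measured genes. In the mean, dose, period, sex, strain and single-group contrasts of lead 0 of these were called, and 0 between the sexes. Between strains 57 were higher and 33 lower in Long Evans than in Fischer rats, or 70.9% called beside 61.2% of all probe sets. For Sprague Dawley against Fischer 25 were higher and 48 lower, or 57.5% beside 40.7%, and for Sprague Dawley against Long Evans 33 were higher and 60 lower, or 73.2% beside 62.2%. The polycomb and COMPASS list, which holds the partners of Ezh2 and Kmt2d, had 5 higher and 9 lower of 18 for Sprague Dawley against Long Evans. The list of deacetylase complexes had 8 higher and 10 lower of 24 in the same contrast, in which 34.4% of all probe sets were higher and 27.8% lower. Between label numbers 25 of the 127 were higher and 65 lower in Fischer rats, or 70.9% beside 60.9%, and 0 were called in Long Evans rats.

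Correlations among members from animal to animal were also computed. With group means removed, the mean Pearson correlation over the 1770 pairs of members across all arrays was 0.085, beside 0.029 over pairs of all probe sets. With the label number sets removed as well it was 0.13, beside 0.019. With only group means removed, single pairs ran from -0.81 to 0.99. By strain the means were then 0.056 beside 0.052 in Fischer, 0.14 beside 0.0080 in Long Evans and 0.098 beside 0.017 in Sprague Dawley rats. With the number sets removed as well, the Fischer mean was 0.12 beside 0.034. All probe sets include dim ones, while no member lay below the 44.6th percentile of level. The arrays share their processing, so these values only describe it. The Prmt1 probe sets correlated at 0.99. Kmt2d correlated with Hdac4 at 0.89, and at 0.58 with the number sets removed, and with Ep300 at 0.88 and 0.56. The Hdac1 probe set 10929261 and Hdac4 correlated at -0.81, and at -0.40 with the number sets removed. The Hdac1 probe sets correlated with each other at 0.71 with the group means alone removed.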

How the data were processed

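The authors made the deposited table, which holds log2 intensities of probe sets with 1 column per animal, with RMA and Partek, per the submitters' processing notes. Versions, the order of steps and any batch correction are not given in the sources used here. RMA quantile-normalizes the arrays and summarises probes on the log2 scale, so a change shared by most probe sets would be hidden and low levels are compressed. The number of arrays limits the precision.

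Members, lists and tests were chosen with earlier results of these data known. Groups came from the labels. One linear model per strain with a mean for each group, and for strain levels 1 model of all arrays, was fitted to all 29214 probe sets with limma 3.58.1 in R 4.3.3 (lmFit and eBayes with default settings). Tests were two-sided, with Benjamini-Hochberg adjustment over all probe sets of a contrast and a threshold of 0.05. Intervals are 95% intervals from the same fit. There were 39 lead contrasts in 49. The fits were tested on simulated data. Values and figures were made with the R package data.table (1.17.8), Python 3.11.15, pandas 2.3.3, numpy 2.4.6 and matplotlib 3.10.9.

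Named members are, per contrast, the called members up to the 5 highest and 5 lowest differences (8 and 8 between strains and sexes), the 3 of smallest p in lead contrasts, and a fixed list of well-known genes. Others named here were added for their role after their values were seen. Alternatives were a further quantile normalization, a filter at the 40th percentile, array weights, the choroid plexus list as a covariate, the arrays against their sex label left out, the label number set as a block or each set alone, 1 fit for all arrays, controls alone, and each animal or replicate left out. Hdac9, Sirt1, Kdm5c, Kdm5d, Kdm6a, Kmt2a and Prmt8 are not analysed here. Promoters came from RefSeq (GRCr8). Probe sets matched the RefSeq gene table by gene identifier for 59 of the 60 members.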

Additional observations from a re-analysis of the deposited data

Results flagged for a closer look

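The 10 Long Evans groups of 4 were checked for Ezh2 and for Kdm4a, which gave 20 checks, and 2 of these found an animal whose distance to the nearest other, as a share of the group's range, was above Dixon's critical value of 0.829, which chance passes in about 1 in 20 groups. The Ezh2 level of Long Evans male control replicate 1 was 7.65, the lowest of its group, with the nearest at 7.70 and a share of 0.88. The Kdm4a level of Long Evans male perinatal 250 ppm replicate 2 was 9.62, the lowest of its group, with the nearest at 9.70 and a share of 0.87. With either animal left out no member was called for lead in Long Evans rats.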

How the results depend on the processing

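Over the 39 lead contrasts and their alternatives, 1393 of 1395 combinations gave 0 called members and 2 gave 1. Both were the mean effect in Long Evans rats: with array weights 1 member, Ezh2, was called (0.15, adjusted p = 0.045), and leaving out 1 animal at a time gave 0 to 1, the 1 being Ezh2 without Long Evans male perinatal 750 ppm replicate 1 (0.14, adjusted p = 0.048). Over its alternatives Ezh2 ran from 0.11 to 0.15 (adjusted p = 0.045 to 0.743), Kdm4a from 0.06 to 0.12 (adjusted p = 0.0879 to 0.823), and the adjusted p of Hdac11 from 0.289 to 0.887.

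Strain counts were 17, 6 and 20 in controls alone, against 44, 32 and 46, with fewer animals, and 34 to 42, 27 to 37 and 42 to 46 with a replicate number left out of every group. The difference of Hdac1 (probe set 10929261) between Sprague Dawley and Fischer rats reversed in the lower label numbers alone, at 0.059 against -0.29. Label number counts ran from 39 to 43 in Fischer and from 0 to 2 in Long Evans rats (2 without replicate 3), and from 2 to 20 in Sprague Dawley rats (2 without replicate 1, 11 without replicate 4). Single members were tallied for a chosen set only, the Long Evans lead effects of Ezh2, Kdm4a and Hdac11 and selected strain differences. Of its 567 values, 556 kept direction and side of the threshold, 8 lost the call, 2 gained it and 1 reversed. Many of these values leave out 1 animal from an effect that was not called. The set omits named results that moved with the label numbers, such as Ezh2 and Crebbp between Long Evans and Fischer rats, so it does not measure the stability of all named members. No paired analysis was possible because the labels give each animal a number of its own that no other group shares; with the label number set as a replicate block, lead gave 0 called members in each strain.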
